A study of Mus musculus with 8 samples.

Results

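The genes described here encode the proteins by which macrophages take up lipid (Lpl, Cd36, Scarb1), bind it in the cytosol (Fabp5), store it in droplets or as cholesteryl ester (Plin2, Soat1), export it (Abca1, Abcg1, Apoe) and regulate that export (Nr1h3). They were chosen by gene symbol, with their values in the comparison below already known. Their values and calls are therefore given as a description, and the list as a whole was not tested. All 10 symbols were found among the 22063 genes of the deposited table, and all 10 passed the expression filter, which left 10770 genes.

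The study sequenced RNA of wild-type mice in 8 libraries, of which 4 carried the label control and 4 the label control with tranilast, an anti-allergic drug. The tissue label of each was liver. The series design places both groups on a high-fat and high-cholesterol (HFHC) diet, whereas the labels name neither a diet nor a dose, an age or a strain, and the study's methods describe male C57BL/6J mice in general. The counts of a library summed to between 14585153 and 15618787 in the control group and to between 12053036 and 14679386 in the tranilast group. Nothing in the labels says that the 4 libraries of a group came from separate animals, so p-values measure the spread between libraries, which may be technical.

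The tissue label was checked against marker genes, as counts scaled to the library total (CPM). Of 13 hepatocyte markers, 7 had no count in any library, among them Hnf4a, Cps1 and Ahsg, the sum of the list was at most 1.91 CPM in any library, and its most abundant gene was Ttr, with at most 1.41 CPM. The 14 macrophage markers summed to between 9742 and 10320 CPM in the control libraries and to between 9560 and 10169 CPM in the tranilast libraries, led by Lyz2. Within that list Mertk had at most 1 count and C1qa, C1qb and C1qc at most 11 in any library. Clec4f, Vsig4 and Timd4, which define resident Kupffer cells, had no count. The libraries labelled as liver therefore lacked the defining transcripts of hepatocytes, against the label, and held most of the macrophage markers. In bulk samples fewer cells of a type and less RNA per cell cannot be told apart.

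Macrophages take up lipid by hydrolysing lipoprotein triglyceride at the cell surface and by scavenger receptors that bind modified lipoproteins and fatty acids. Free cholesterol is esterified in the endoplasmic reticulum and kept in cytosolic droplets coated by perilipins, from which it can be released again and passed to apolipoprotein A-I or high-density lipoprotein by ABC transporters. The transporters are transcribed under the control of liver X receptors, which sense oxysterols, and overloaded macrophages become the foam cells of atherosclerotic plaques and of fatty liver.

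Of the 10 genes, 3 passed as higher and 3 as lower with tranilast when an adjusted p-value under 0.05 was asked of the fit across all genes, and the remaining 4 were not called. Over all genes tested, 57.0% were called, 28.2% higher and 28.8% lower, and nothing is read from the members' count. The 6 called genes were also the 6 whose libraries did not overlap between the groups, a state that held for 49.8% of all genes tested. In the order of uptake, storage and export, Lpl and Cd36 were lower, Plin2 was higher, Soat1 was lower, and Abcg1 and Nr1h3 were higher. Normalised CPM are scaled by the TMM method, which adjusts each library under the assumption that most genes do not differ. The log2 fold changes are of tranilast over control with the standard error of the fit.

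**Figure D1:**
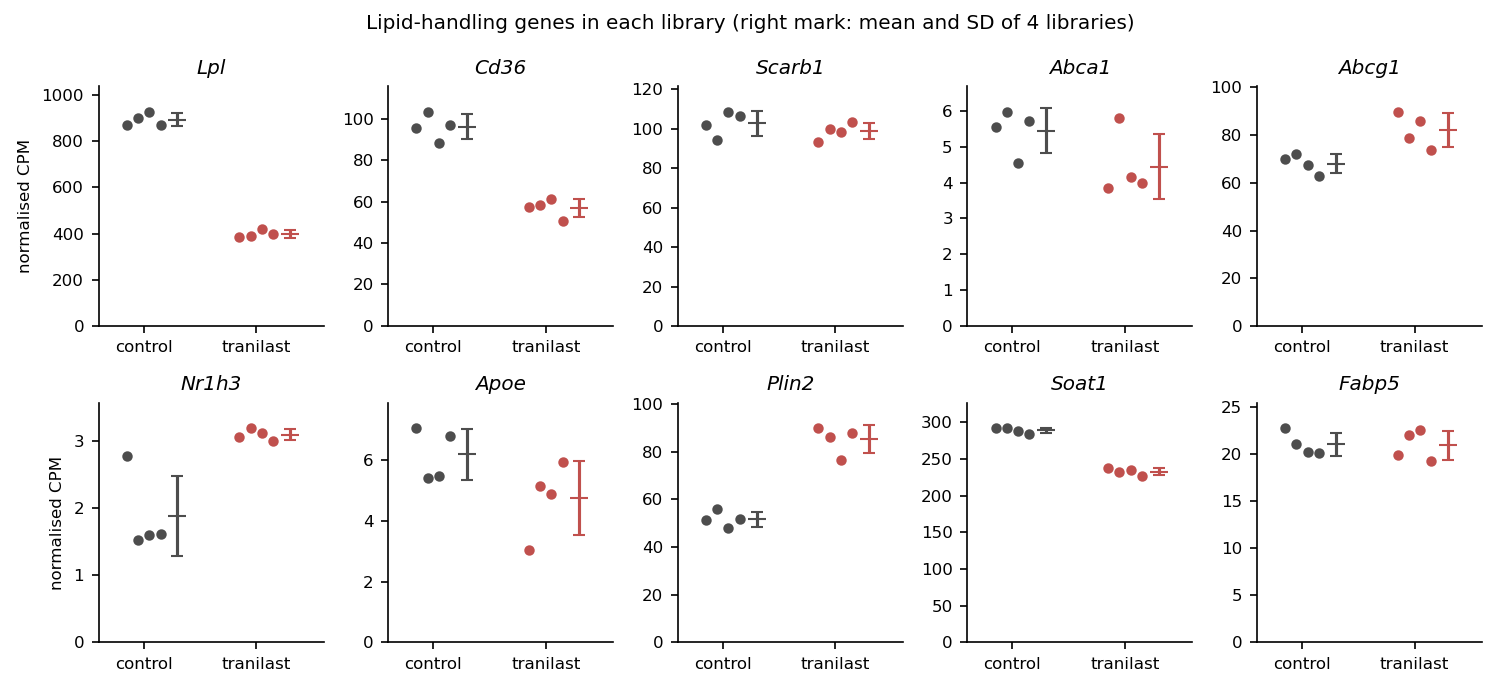
Each panel shows 1 gene, with a point for each of the 8 libraries, the y axis in normalised CPM from 0, and the mean and SD of 4 libraries at the right of each group. The mean of Lpl was 892 and 398 and that of Plin2 51.7 and 85.2 in the control and tranilast groups, whereas the points of Scarb1, Fabp5, Apoe and Abca1 overlap.

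Lpl, the lipase that frees fatty acids from triglyceride-rich lipoproteins (ENSMUSG00000015568, chromosome 8 of GRCm38, 68880491 to 68907448), had the largest difference of the 10. Its normalised CPM was 869, 902, 928 and 870 in control replicates 1 to 4 and 386, 389, 421 and 397 in tranilast replicates 1 to 4. The tranilast libraries lay close together and all of them below the lowest control library. The log2 fold change was -1.16 (standard error 0.031), from 892 ± 28.1 (SD, n = 4) to 398 ± 15.9 (SD, n = 4). In FPKM, which also corrects for transcript length, Lpl was the most abundant of the 10 in both groups, at 300.3 ± 11.2 and 144 ± 5.10 (SD, n = 4).

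Cd36, a scavenger receptor and fatty acid translocase (ENSMUSG00000002944, chromosome 5, 17781690 to 17888801), had 95.7, 103, 88.4 and 97.0 normalised CPM in control replicates 1 to 4. The tranilast libraries had 57.4, 58.6, 61.1 and 50.6, each of them below every control library. The log2 fold change was -0.76 (standard error 0.058). Scarb1, the high-density lipoprotein receptor (ENSMUSG00000037936, chromosome 5, 125277087 to 125341094), had 102, 94.6, 109 and 106 normalised CPM in the control libraries and 93.4, 99.96, 98.4 and 103 in the tranilast libraries. The groups overlapped, and the log2 fold change was -0.06 (standard error 0.047).

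Fabp5, a cytosolic fatty acid binding protein (ENSMUSG00000027533, chromosome 3, 10012548 to 10016607), ranged from 20.1 to 22.8 normalised CPM in the control group and from 19.3 to 22.5 in the tranilast group. The groups overlapped, and the log2 fold change was -0.01 (standard error 0.079). Of the stretches of 75 bases in its transcripts, 3.03% also occurred in transcripts of other genes, the pseudogenes Gm6166 and Gm14328, so that its counts may include reads of those. The corresponding share was at most 0.83% in the other members.

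Plin2, the droplet coat protein often used as a marker of stored lipid in macrophages (ENSMUSG00000028494, chromosome 4, 86648386 to 86670060), had 51.4, 55.9, 48.0 and 51.6 normalised CPM in control replicates 1 to 4 and 89.9, 86.4, 76.6 and 88.0 in tranilast replicates 1 to 4. Each tranilast library was above each control library, and tranilast replicate 3 was the lowest of its group. The log2 fold change was 0.72 (standard error 0.056), from 51.7 ± 3.22 to 85.2 ± 5.92 (SD, n = 4). In FPKM it was below Cd36 in the control group and above Cd36 in the tranilast group.

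Soat1, which esterifies cholesterol for storage (ENSMUSG00000026600, chromosome 1, 156424525 to 156474331), had 292, 292, 288 and 284 normalised CPM in the control libraries and 237, 232, 234 and 226 in the tranilast libraries. The groups were narrow and did not overlap. The log2 fold change was -0.31 (standard error 0.029), and -0.20 with libraries scaled by their size alone. Plin2 and Soat1, both of the storage side, therefore differed in opposite directions.

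**Figure D2:**
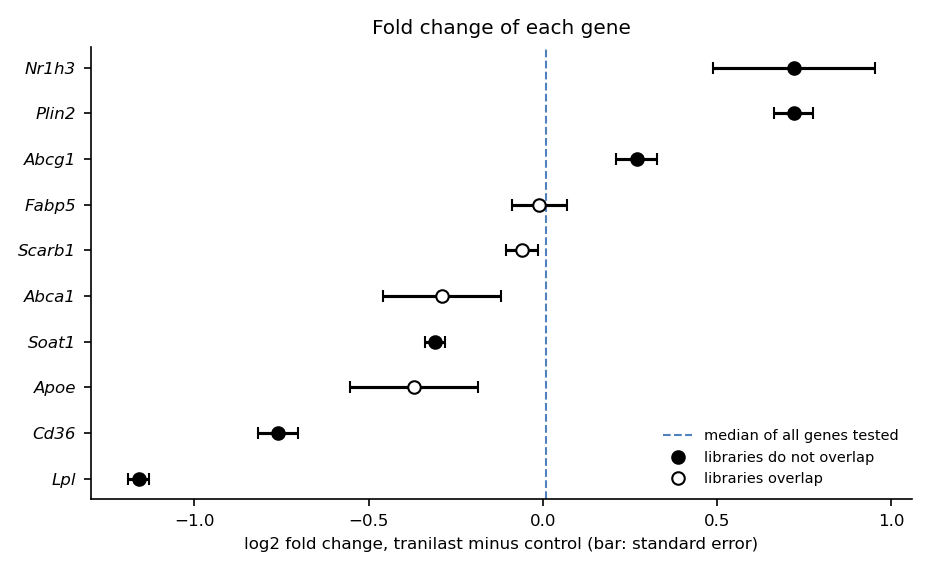
Points give the log2 fold change of tranilast over control for each of the 10 genes, bars the standard error, filled points the genes whose libraries did not overlap, and the dashed line the median of all genes tested (0.008), all on the TMM scale. Lpl, at -1.16, and Cd36, at -0.76, lie lowest, and Plin2 and Nr1h3, both at 0.72, lie highest.

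The deposited count and FPKM of a gene together imply the transcript length used for it, as the count divided by the FPKM and by the library total, given in kb. For Soat1 this length was 2.77, 2.79, 2.71 and 2.77 kb in control replicates 1 to 4 and 3.06, 3.01, 3.19 and 3.16 kb in tranilast replicates 1 to 4. The groups did not overlap, and the FPKM of Soat1 accordingly differed more than its counts, at 100.5 ± 1.56 and 77.9 ± 2.84 (SD, n = 4). For Abcg1 the implied length was between 3.57 and 5.05 kb in the control group and between 3.58 and 4.58 kb in the tranilast group, and its FPKM overlapped between groups although its counts did not. For Scarb1 it was between 2.50 and 2.52 kb in all libraries. Which transcripts gave rise to these lengths was not tested. In the annotation, Soat1, Abcg1, Nr1h3 and Scarb1 overlap other gene models, on the same strand for Gm42633 (Scarb1), Gm25447 (Abcg1) and Gm13783 (Nr1h3), and reads of these cannot be told apart.

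**Figure D3:**
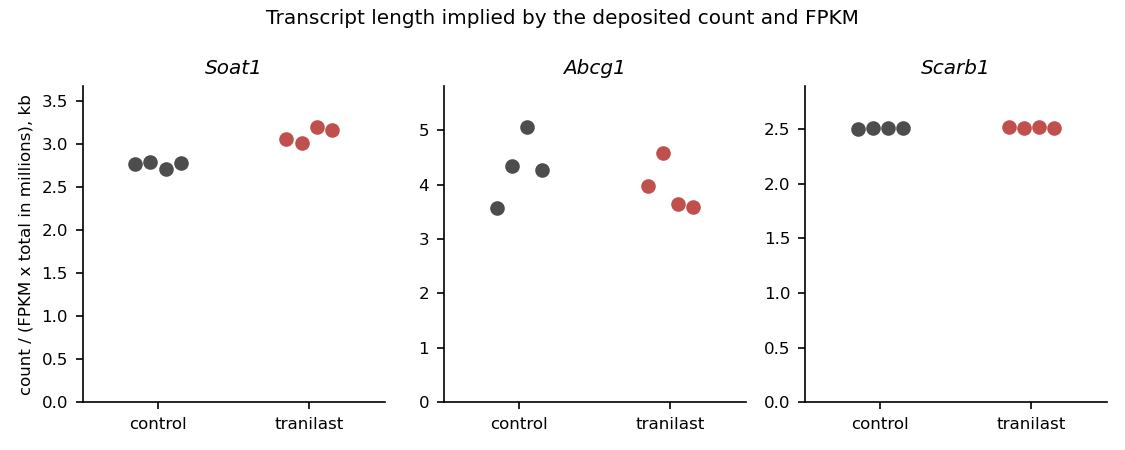
Points show, for each library, the transcript length in kb that the deposited count, FPKM and library total imply for Soat1, Abcg1 and Scarb1, with each y axis starting at 0. The Soat1 values of the tranilast libraries (3.01 to 3.19 kb) lie above those of the control libraries (2.71 to 2.79 kb), and those of Scarb1 coincide.

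Abca1, which exports cholesterol and phospholipid to apolipoprotein A-I (ENSMUSG00000015243, chromosome 4, 53030787 to 53159895), was sparse, with 78, 86, 68 and 82 counts in the control libraries and 54, 80, 52 and 61 in the tranilast libraries. The groups overlapped because of tranilast replicate 2, and the log2 fold change was -0.29 (standard error 0.17), or -0.45 without that library, when the gene was called, and -0.06 on the log2 of FPKM plus 1. Abcg1, which exports cholesterol to high-density lipoprotein (ENSMUSG00000024030, chromosome 17, 31057675 to 31117988), had 69.9, 72.0, 67.4 and 62.8 normalised CPM in the control libraries and 89.8, 78.8, 85.9 and 73.7 in the tranilast libraries. The groups came close without overlapping, and the log2 fold change was 0.27 (standard error 0.059), or 0.48 on the log2 of FPKM plus 1. Per length, Abcg1 was far above Abca1 in both groups, with 15.4 ± 2.63 against 0.51 ± 0.059 FPKM in the control group and 21.8 ± 2.87 against 0.45 ± 0.093 FPKM in the tranilast group (SD, n = 4).

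Apoe, the apolipoprotein that macrophages secrete as a cholesterol acceptor (ENSMUSG00000002985, chromosome 7, 19696109 to 19699188), had 99, 78, 82 and 97 counts in the control libraries and 43, 71, 61 and 91 in the tranilast libraries. The groups overlapped, and the log2 fold change was -0.37 (standard error 0.18), or -0.50 and called without tranilast replicate 4, -0.21 without tranilast replicate 1 and -0.17 on the log2 of FPKM plus 1. Nr1h3, which encodes liver X receptor alpha (ENSMUSG00000002108, chromosome 2, 91184061 to 91202834), had 39, 22, 24 and 23 counts in control replicates 1 to 4 and 43, 44, 39 and 46 in tranilast replicates 1 to 4. Control replicate 1 stood apart from the rest of its group and reached the lower end of the tranilast libraries in counts, while in normalised CPM, at 2.77, it stayed below all of them, which reached up to 3.18. The log2 fold change was 0.72 (standard error 0.23), and 0.96 without control replicate 1.

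In FPKM the order in the control group was Lpl, Soat1, Scarb1, Cd36, Plin2, Fabp5, Abcg1, Apoe, Nr1h3 and Abca1, and only Scarb1 and Cd36 overlapped as neighbours. In the tranilast group the order was Lpl, Soat1, Plin2, Scarb1, Fabp5, Cd36, Abcg1, Apoe, Nr1h3 and Abca1. There Plin2 overlapped Scarb1, and Fabp5, Cd36 and Abcg1 overlapped in turn, at means of 22.1, 21.9 and 21.8 FPKM.

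**Figure D4:**
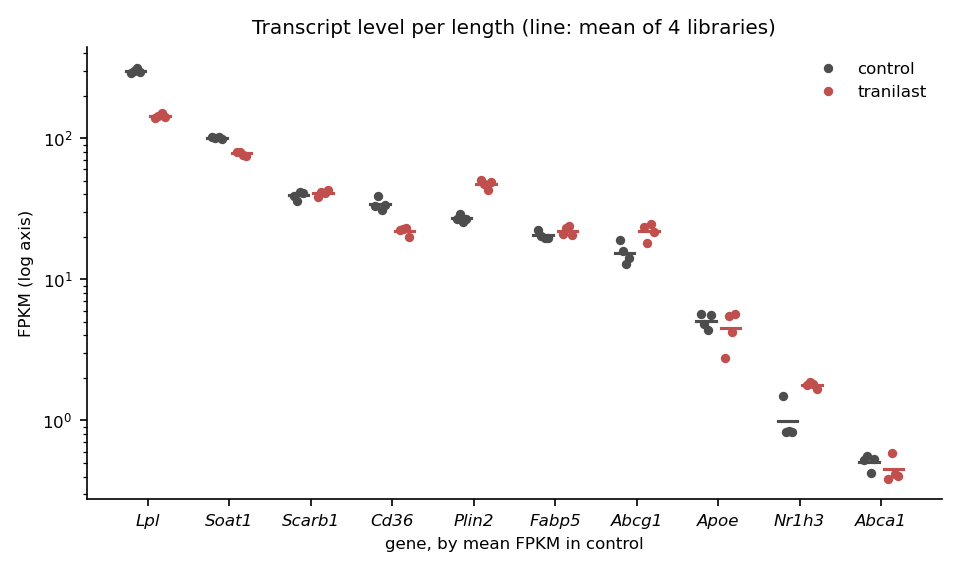
Points give the FPKM of each library on a log axis for the 10 genes, ordered by their mean in the control group, with lines at the mean of 4 libraries. Lpl is highest in both groups (300.3 and 144 FPKM) and Abca1 lowest (0.51 and 0.45 FPKM).

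Promoter windows of RefSeq (GRCm38.p6, 250 bases before to 50 after the start) were found for 6 of the 10 genes, namely Soat1, Nr1h3, Abca1, Plin2, Cd36 and Apoe, and not for Lpl, Scarb1, Abcg1 and Fabp5. They were searched on both strands for the nuclear receptor half-site AGGTCA, for a pair of half-sites spaced by 1 base (DR1) or by 4 bases (DR4) with up to 2 mismatches, and for the E-box CACGTG, the GC box GGGCGG and the TATA box TATAAA. Of all 32851 windows, 16.3% held the half-site, 3.86% DR1, 3.02% DR4, 7.15% the E-box, 35.7% the GC box and 13.6% the TATA box. The half-site and DR1 were found in the windows of Plin2 and Cd36, which are shown because these genes differed in opposite directions. DR4 was found in none of the 6 genes, which says only that these letters are not in these windows. The GC box was found in Soat1, Abca1, Plin2 and Cd36, the E-box in Abca1 and Plin2, and the TATA box in Abca1 and Apoe. Capitals mark the half-site, found on the opposite strand, and DR1, which overlap in Plin2, and a match is a description and not a binding site. The windows are chr4:86670010-86670309 for Plin2 and chr5:17835847-17836146 for Cd36, both on the minus strand. The start site of the Plin2 window lay 1 base from the nearest transcript start in GENCODE. That of the Cd36 window lay 179 bases from the nearest one and 52.9 kb inside the gene, so it is an internal start and not the most upstream.
Plin2: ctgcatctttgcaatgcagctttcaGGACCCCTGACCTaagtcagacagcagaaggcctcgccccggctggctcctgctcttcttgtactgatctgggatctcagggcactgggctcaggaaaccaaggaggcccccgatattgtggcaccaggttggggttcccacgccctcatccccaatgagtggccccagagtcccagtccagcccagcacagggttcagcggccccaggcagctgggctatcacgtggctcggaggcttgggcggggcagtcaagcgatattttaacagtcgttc
Cd36: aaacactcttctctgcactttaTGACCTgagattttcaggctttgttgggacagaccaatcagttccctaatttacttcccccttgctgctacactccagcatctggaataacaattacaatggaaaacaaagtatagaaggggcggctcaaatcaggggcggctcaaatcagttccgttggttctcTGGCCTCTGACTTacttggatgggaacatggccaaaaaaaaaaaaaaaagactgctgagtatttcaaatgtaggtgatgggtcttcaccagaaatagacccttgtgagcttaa

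Other genes of lipid handling were taken from 9 lists that leave out the 10 members. The lists held 151 genes of the table, of which 92 were tested and 44 had at most 3 counts in every library. By the quasi-likelihood method of edgeR, 41 passed as higher and 22 as lower with tranilast (Benjamini-Hochberg adjusted, BH, over all genes, under 0.05). Rises and falls of single genes are on the log2 scale, and the median log2 fold change of the 92 was 0.137, against 0.008 over all genes tested. Of all genes tested, 57.0% were called, 28.2% higher and 28.8% lower, and the counts of each list stand against these shares. In the deposited KEGG annotation, with the members again left out, the same test called 5 genes of Cholesterol metabolism higher and 7 lower of 23 tested (median -0.06), 16 of the PPAR signaling pathway higher and 9 lower of 36 (median 0.103) and 13 of ABC transporters higher and 2 lower of 23 (median 0.238). These are not separate genes, as 13, 20 and 6 of the tested genes of the 3 pathways are also in the 9 lists. With libraries scaled by size alone the counts were 10 higher and 5 lower (median 0.057), 22 and 3, and 13 and 1, and without control replicate 4 ABC transporters had 4 lower.

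**Figure D5:**
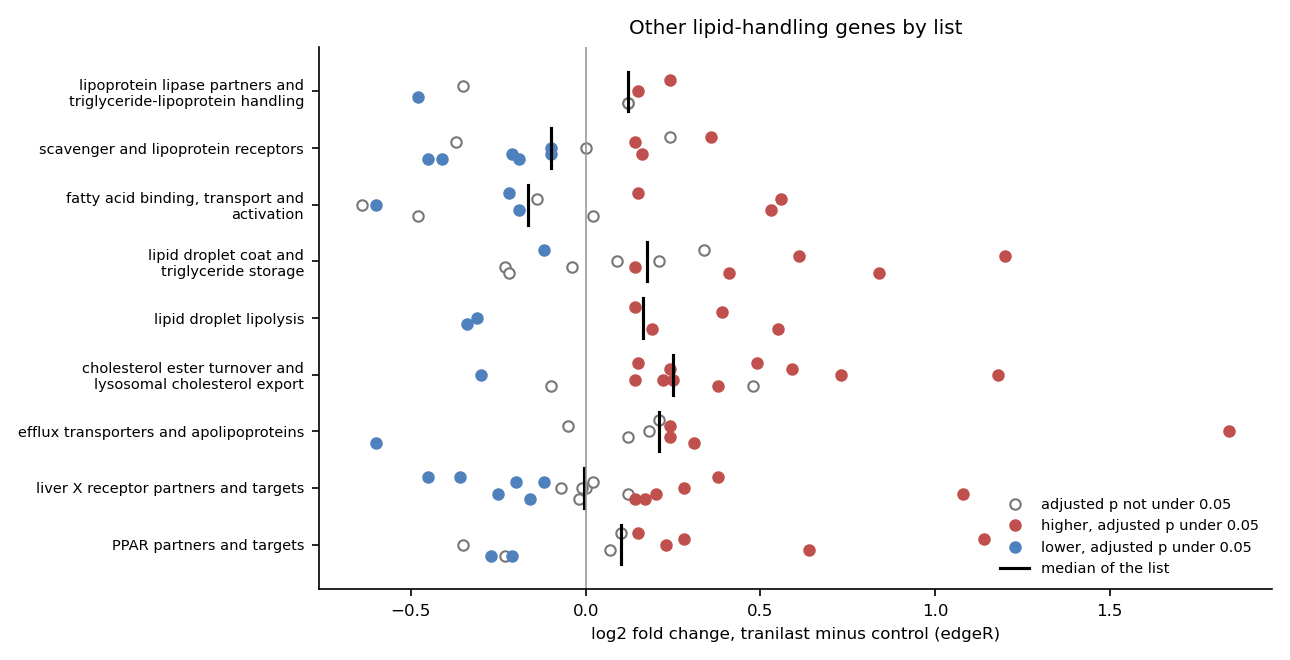
Points give the log2 fold change of each tested gene in the 9 lists, coloured by direction where the adjusted p-value of edgeR was under 0.05, with a line at the median of each list. Of 13 tested genes of cholesterol ester turnover and lysosomal export, 10 passed as higher and 1 as lower, and the receptors are divided (3 higher, 6 lower).

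For cholesterol ester turnover and lysosomal cholesterol export, 10 genes were higher and 1 lower of 13 tested (median 0.245). Nceh1, the hydrolase that releases cholesterol from its esters and thus acts against Soat1, rose from 44.4 ± 2.18 to 101 ± 2.89 normalised CPM (SD, n = 4), or by a log2 difference of 1.18 (standard error 0.046, BH-adjusted p = 2.71e-13, edgeR quasi-likelihood). Npc1, which moves cholesterol out of lysosomes, rose by 0.59 (standard error 0.044, BH-adjusted p = 2.05e-09, edgeR quasi-likelihood), and Stard5, a cholesterol transfer protein, by 0.73 (standard error 0.10). Lipa, the lysosomal acid lipase and the most abundant of the list at 109 FPKM, rose by 0.14 (standard error 0.028).

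For the lipid droplet coat and triglyceride storage, 5 genes were higher and 1 lower of 12 tested (median 0.173). The count of lower genes was 0 in most alternatives, among them leaving out control replicate 1, 3 or 4 or tranilast replicate 2 or 3. Lpin1, which makes diacylglycerol, rose from 17.9 ± 0.93 to 41.0 ± 4.72 normalised CPM (SD, n = 4), or by a log2 difference of 1.20 (standard error 0.082, BH-adjusted p = 7.28e-10, edgeR quasi-likelihood). Plin3, a further droplet coat protein, rose by 0.84 (standard error 0.071), and Bscl2, which encodes seipin, by 0.41 (standard error 0.055). Rab18, the most abundant of the list at 52.6 FPKM, rose by 0.14 (standard error 0.046, BH-adjusted p = 0.0151, edgeR quasi-likelihood), while the edgeR BH-adjusted p was 0.0504 without control replicate 1 and 0.0682 without control replicate 3, the highest of values from 1e-04 upward over the alternatives. Plin1 and Plin5, which coat droplets of other tissues, had at most 1 count in any library.

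For lipid droplet lipolysis, all 6 tested genes passed, 4 higher and 2 lower (median 0.161), where 57.0% of all genes tested passed. Not all of them passed in every alternative. The count of higher genes was 3 with DESeq2, without control replicate 1, 2, 3 or 4 and without tranilast replicate 3 or 4. The median was 0.278 with libraries scaled by size alone. Pnpla2, the triglyceride lipase ATGL, rose by 0.55 (standard error 0.062), while its activator Abhd5 fell by 0.34 on the log2 scale (standard error 0.064), so that the lipase and its activator differed in opposite directions. Abhd6, a monoacylglycerol lipase, rose by 0.39 (standard error 0.099). The other lower gene was Lipe, a further lipase, given below with the adipocyte markers. G0s2, which encodes an inhibitor of Pnpla2, had no count in any library.

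For uptake, 3 receptors and control genes were higher and 6 lower of 12 tested (median -0.101), 5 and 3 with libraries scaled by size alone (median 0.015) and 3 and 3 on the FPKM scales. Mylip, which marks lipoprotein receptors for degradation, fell by 0.45 (standard error 0.089, BH-adjusted p = 2.85e-04, edgeR quasi-likelihood), Cxcl16, a chemokine and scavenger receptor, fell by 0.41 (standard error 0.048), and Lrpap1, a receptor chaperone, rose by 0.36 (standard error 0.055). Cd68, the most abundant at 478 FPKM, rose by 0.16 (standard error 0.029). Of the partners of lipoprotein lipase, 2 were higher and 1 lower of 6 tested, 4 and 1 with size alone, and 2 and 2 without tranilast replicate 4. Lmf2, which encodes lipase maturation factor 2, fell by 0.48 (standard error 0.067). Lmf1, which encodes lipase maturation factor 1 and was named after its values were seen, was not called at 0.12 (standard error 0.071). Furin, which cleaves the lipase, and Sel1l, of endoplasmic reticulum quality control, rose by 0.24 (standard error 0.040) and by 0.15 (standard error 0.035). Gpihbp1, the endothelial anchor of the lipase, had no count.

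Of the genes for fatty acid binding, transport and activation, 3 were higher and 3 lower of 10 tested (median -0.169). With libraries scaled by size alone 4 were higher and 2 lower (median -0.052). The median was -0.054 and -0.055 on the FPKM scales and -0.06 with a minimum of 10 counts per library. Acsl5, an acyl-CoA synthetase, fell from 245 ± 1.47 to 161 ± 3.32 normalised CPM (SD, n = 4), or by a log2 difference of -0.60 (standard error 0.030, BH-adjusted p = 9.98e-12, edgeR quasi-likelihood). The fatty acid transport proteins Slc27a4 and Slc27a1 rose by 0.56 (standard error 0.053) and by 0.53 (standard error 0.040). Got2, the most abundant at 123 FPKM, fell by 0.22 (standard error 0.029). Fabp4, which macrophages often express beside Fabp5, had between 4 and 17 counts and was not tested.

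For efflux transporters and apolipoproteins, 4 genes were higher and 1 lower of 9 tested (median 0.21), with 3 lower without control replicate 3 and 2 lower without tranilast replicate 2 or 3 or without the filter on low counts. The median was 0.111 without tranilast replicate 3 and 0.326 with libraries scaled by size alone. Abca5 ranged from 8 to 25 counts in the control group and from 38 to 57 with tranilast, a log2 fold change of 1.84 (standard error 0.29, BH-adjusted p = 2.58e-05, edgeR quasi-likelihood). It was not called by limma on the log2 of FPKM plus 1, at 0.383 and a BH-adjusted p of 0.0893, with p-values from 3.25e-08 to 0.0893 over the alternatives. Abca2, a transporter of the same family, rose by 0.31 (standard error 0.039). Snx27 encodes a sorting nexin, neither a transporter nor an apolipoprotein, and was the most abundant of the list at 31.6 FPKM. It was not called at -0.05 (standard error 0.046) and turned to between 0.015 and 0.087 with 4 other scalings. The apolipoproteins Apoc1 and Apoc4 had no count.

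For liver X receptor partners and targets, 6 genes were higher and 6 lower of 18 tested (median -0.006), and 9 and 4 with libraries scaled by size alone (median 0.111). Tgm2, a transglutaminase, rose by 1.08 (standard error 0.17, BH-adjusted p = 3.04e-05, edgeR quasi-likelihood), from between 33 and 49 counts to between 69 and 97, and Ncoa1, a coactivator, by 0.38 (standard error 0.056). Mylip, given above among the receptors and also in this list, fell by 0.45 (standard error 0.089). Scd2, a fatty acid desaturase and the most abundant at 324 FPKM, fell by 0.36 (standard error 0.021, BH-adjusted p = 6.54e-11, edgeR quasi-likelihood). Nr1h2, the other liver X receptor, chosen after its values were seen, had 32.0 FPKM and was not called at -0.02 (standard error 0.053), with a sign that changed under other scalings and without control or tranilast replicate 3. Rxra, a partner of these receptors, had at most 11 counts. Rxrb, another partner and named after its values were seen, had 801 to 979 counts. It rose by 0.20 (standard error 0.045, BH-adjusted p = 0.0011, edgeR quasi-likelihood).

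For PPAR partners and targets, 5 genes were higher and 2 lower of 11 tested (median 0.096), and 6 and 0 with libraries scaled by size alone. Cpt1a, which admits fatty acids to mitochondria, rose by 1.14 (standard error 0.059, BH-adjusted p = 1.33e-11, edgeR quasi-likelihood), Slc25a20, the carnitine carrier, by 0.64 (standard error 0.12), and Acadl, an acyl-CoA dehydrogenase, by 0.28 (standard error 0.042). Pparg and Ppara had at most 1 count in any library; at such counts no difference could be detected. Ppard, the remaining PPAR and named here after its values were seen, had 233 to 423 counts and was called at -0.27, with libraries that overlapped between the groups (standard error 0.092, BH-adjusted p = 0.0171, edgeR quasi-likelihood). Ppard was not called at -0.16 with size alone, at -0.20 with upper-quartile factors or at -0.02 on either FPKM scale, nor at -0.19 without control replicate 3 or at -0.23 and -0.24 without tranilast replicates 1 and 3. Leaving out any of these 3 libraries left 1 gene of the list lower in place of 2, whereas 3 were lower without tranilast replicate 4.

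When libraries were scaled by size alone, the median log2 fold change of all genes moved from 0.008 to 0.125, and on the deposited FPKM it was 0.103 or 0.116. Scarb1 turned from -0.06 to 0.059 with size alone and was also above 0 with upper-quartile factors and on both FPKM scales. Fabp5 turned from -0.01 to 0.108 with size alone, and its sign changed in 7 alternatives, 3 of which left out a single library. The other 8 members kept their direction in the alternatives run. With size alone the wider lists had 54 genes higher and 13 lower in place of 41 and 22, and all genes 4613 and 1893 in place of 3039 and 3104. Higher genes made up 49.5% of all those called under TMM scaling, 62.6% under upper-quartile scaling and 70.9% under size alone. Small differences moved by over 1.5 times with size alone, to -0.10 for Got2, -0.22 for Abhd5, 0.25 for Lipa, 0.27 for Cd68 and 0.26 for Sel1l and Rab18. On the log2 of FPKM plus 1, Cxcl16 moved to -0.23 and Tgm2 to 0.63.

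The macrophage markers differed between the groups too. Of the 10 that were tested, edgeR called 3 higher and 6 lower (BH), where 57.0% of all genes tested were called. The split depended on the scaling, with 3 higher and 3 lower both with size alone and on the FPKM scales, and 5 and 6 without the filter on low counts. Fcgr1, an Fc receptor, fell by 1.42 (standard error 0.11), and Spi1, the factor PU.1, fell by 0.40 (standard error 0.031), both chosen after their values were seen. The 3 called higher were Adgre1, Mpeg1 and Cd68. They rose by 0.21 (standard error 0.050), 0.20 (standard error 0.036) and 0.16 (standard error 0.029). The sum of the list overlapped between groups as CPM of the library total, whereas in TMM-normalised CPM it was between 10106 and 10795 in the control group and between 9157 and 9813 in the tranilast group. Of 8 tested markers of lipid-associated macrophages, 3 were called higher and 4 lower, but 3 and 1 with size alone, upper-quartile factors or FPKM. Their sum, led by Spp1, overlapped at 6390 to 6941 and 6194 to 6712 CPM, and did not in normalised CPM, at 6643 to 7261 and 5933 to 6477. Spp1 itself fell from 4210 ± 211 to 3253 ± 176 normalised CPM (SD, n = 4), or by 0.37 (standard error 0.035). Lgals3, Cd9 and Trem2 fell by 0.11, 0.10 and 0.10, whereas Gpnmb, Ctsd and Ctsl rose by 0.56, 0.43 and 0.14.

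Marker lists of other cell types were summed in each library as CPM of the library total, with the control range given before the tranilast range. The 10 Kupffer cell markers summed to 37.9 to 44.9 and 48.6 to 60.4 CPM. Their most abundant gene, Id3, fell by 0.31 (standard error 0.085) by edgeR but was not called at -0.20 with size alone or at -0.19 and -0.20 on the FPKM scales, while Slc40a1, which encodes the iron exporter ferroportin and was chosen after its values were seen, rose by 2.28 (standard error 0.11), from 4.37 ± 0.47 to 21.2 ± 2.02 normalised CPM (SD, n = 4). The 7 neutrophil markers (led by Csf3r, with S100a9, Retnlg and Mpo at 0) summed to 4.10 to 5.69 and 6.97 to 8.84 CPM. The 6 cholangiocyte markers, nearly all Spp1 and with Krt7 at 0, summed to 3869 to 4311 and 3164 to 3554 CPM. In normalised CPM these 3 lists did not overlap either, but the Kupffer cell ranges, 39.4 to 46.9 and 46.9 to 57.9, were apart by less than the rounding shows.

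For other lists the scaling decided whether the groups overlapped. The 6 B and plasma cell markers (led by Ighm, with Ms4a1 at 0) did not overlap at 55.3 to 61.9 and 64.3 to 80.6 CPM, and overlapped in normalised CPM, at 57.5 to 64.3 and 61.6 to 77.8. The 7 dendritic cell markers (led by Zbtb46, with Cd209a at 0) did not overlap at 1.10 to 2.01 and 2.11 to 3.88 CPM, and overlapped in normalised CPM, at 1.14 to 2.09 and 2.03 to 3.72. The 8 adipocyte markers (led by Lipe, with Cfd and Retn at 0) overlapped at 36.7 to 43.8 and 32.3 to 38.7 CPM, and did not in normalised CPM, at 38.1 to 45.8 and 31.0 to 37.3. Lipe, a lipase that is also in the list of lipid droplet lipolysis, had 424 to 655 counts, whereas no other adipocyte marker had over 17. Lipe itself fell by 0.31 (standard error 0.070) by edgeR. It was also called at -0.19 with size alone and at -0.18 and -0.19 on the log2 of FPKM plus 1 and plus 0.1. The 9 endothelial, 9 stellate cell and 7 T and NK cell markers summed to at most 0.747, 2.75 and 0.136 CPM. The part of these differences in the results for lipid handling was not tested.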

How the data were processed

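Messenger RNA, enriched by its poly-A tail per the study's methods, was sequenced in 8 libraries, 4 control and 4 tranilast by their labels. The authors deposited, for each gene, an estimated count, which need not be whole, and an FPKM value scaled for transcript length and depth. Aligner, counter and build are not given in the sources used here. The methods name the HiSeq X-ten and the labels a NovaSeq. Estimated counts were rounded to whole numbers and filtered by filterByExpr with groups. After TMM scaling, edgeR 4.0.16 was used for quasi-likelihood comparison, with BH (Benjamini-Hochberg) adjusted p-values for 10770 genes and no covariate. Normalised CPM are counts scaled to the TMM-adjusted library size. The deposited FPKM were used for levels between genes.

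The members and lists were chosen with earlier results of these data known. They comprise the 10 members, 9 wider lists, 3 KEGG pathways and 12 lists of cell type markers. From each wider list the text names up to 3 genes with the largest absolute log2 fold change among those with an adjusted p-value under 0.05 and no overlap between groups, and the gene with the highest mean FPKM. A further gene that this rule takes is not reported here. Genes that did not pass the filter are named with their counts, and Nr1h2, Ppard, Fcgr1, Spi1, Adgre1, Mpeg1 and Slc40a1 were named after their values were seen. The same holds for Rxrb, Lmf1 and the called markers of lipid-associated macrophages. Alternatives were RLE, upper-quartile and size factors, DESeq2 1.42.0, limma 3.58.1 (voom, and trend on log2 FPKM plus 1 or 0.1), omission of the filter, a minimum of 10 counts per library, the replicate number as a block, other call rules and each library left out. Further software was R 4.3.3, Python 3.11.15, numpy 2.4.6 and pandas 2.3.3, and simulated data served to test the code. A count of 0 allows up to 3 counts, or 0.192 to 0.249 CPM, for counting error only. Positions are those of GENCODE M21 on GRCm38, matched by identifier for 21973 genes, with 90 unmatched. Gyk and Spart were not found by symbol. Promoters are those of RefSeq, GRCm38.p6.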

Additional observations from a re-analysis of the deposited data

Results flagged for a closer look

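Among 82 groups of 4 libraries, those of the 10 members and the named genes, 3 held a library far from the rest by Dixon's 95% criterion for its gap, and chance gives about 1 in 20. Nr1h3 was at 2.77 normalised CPM in control replicate 1, against 1.53 to 1.61 in the other control libraries. Abca1 was at 5.79 in tranilast replicate 2, against 3.83 to 4.15 in the others. Tgm2 was at 6.33 in tranilast replicate 4, against 5.51 to 5.61. The cause of these values was not tested.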

How the results depend on the processing

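The other call rules were not applied to the number of members called. Under the remaining alternatives this number was 6, and it was between 6 and 7 where a library was left out. The additional gene was Abca1 without tranilast replicate 2 and Apoe without tranilast replicate 4. Of 180 values of the members under alternatives, 158 moved by less than the spread between libraries and 22 by more, all of the latter with size factors, upper-quartile factors or FPKM. Lpl was between -1.19 and -1.05, Cd36 between -0.80 and -0.61, Plin2 between 0.69 and 0.84, Soat1 between -0.37 and -0.20, Abcg1 between 0.23 and 0.50 and Nr1h3 between 0.49 and 0.96. Of the members not called, Abca1 was between -0.45 and -0.06, Apoe between -0.50 and -0.17, Scarb1 between -0.10 and 0.06 and Fabp5 between -0.04 and 0.11, with 4 changes of sign for Scarb1 and 7 for Fabp5.

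With size factors 4613 genes were higher and 1893 lower, and 1660 and 1663 were lower with FPKM plus 1 and plus 0.1. The wider genes called lower were 13 with size factors and 12 with either FPKM scale, in place of 22, and the KEGG genes called lower were 9 with each, in place of 18. When an absolute log2 fold change of 1.5 was also required, 1 of the 92 wider genes tested passed, Abca5. Over all 10770 genes tested, 120 passed at this threshold. Of the named wider genes, Snx27 turned to 0.015 with upper-quartile factors, 0.064 with size factors, and 0.084 and 0.087 with FPKM plus 1 and plus 0.1. It was called at -0.102 without control replicate 3. Others moved by over 1.5 times in the same direction, such as Got2 from -0.22 to -0.10 and Lipa from 0.14 to 0.25 with size factors, and Cxcl16 from -0.41 to -0.23 and Tgm2 from 1.08 to 0.63 with FPKM plus 1. The causes of these shifts were not tested. Abca5 had no value with the minimum of 10 counts. No alternatives are given for Adgre1, Mpeg1, Rxrb, Lmf1 and the single markers of lipid-associated macrophages. Counts for each list, and the other genes named outside the rule, were put under the same alternatives after the data were seen. Among these genes Nr1h2 turned to 0.049 with upper-quartile factors, 0.098 with size factors, and 0.084 and 0.086 with FPKM plus 1 and plus 0.1, and was between -0.045 and 0.025 with a library left out.

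The replicate numbers did not pair the samples, since same-numbered libraries correlated at -0.056, -0.044, 0.008 and 0.107. With the replicate block 6009 genes, 6 members, 62 wider genes and 51 KEGG genes were called, in place of 6143, 6, 63 and 52. Abca1, Apoe and Nr1h3 had under 100 counts in every library, which limits their precision.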
